A study of Homo sapiens with 12 samples.

Results

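The antigen processing and MHC genes are a set of 36 genes, chosen by symbol among the 58278 genes listed in each library, with earlier results of these data known. They comprise 5 class I heavy chains, the class I light chain B2M, 10 class II chains with the invariant chain CD74, 5 transcription regulators, 3 immunoproteasome subunits, 7 genes of peptide transport, trimming and loading, 2 endosomal genes and 2 stress-induced class I-like ligands. All 36 passed the filter on low counts and were among the 24342 genes tested. RNA was sequenced from HK2, an immortalized human cell line of tubular epithelial cells (TECs) from the proximal tubule, in 12 libraries, with 2 biological replicates in each of 6 groups. Ctrl cells were untreated, and TN cells were given TNF-α, an inflammatory cytokine, at 5 ng/mL for 3 h. In PRTN and BUTN the cells had propionate at 15 mM or butyrate at 3 mM for 24 h before the same TNF-α, and in TNPR and TNBU they had the same short-chain fatty acids (SCFAs) for 24 h after it. The general treatment text of the labels names thapsigargin and JQ1 instead, whereas TNF-α and the SCFA stand in the labels of the treated libraries themselves. TN cells were collected at the end of TNF-α, and no cells kept for the later 24 h without an SCFA were analysed here, so the timing of the SCFA and the time since TNF-α cannot be told apart. All 6 groups are 1 cell line, and p-values measure the spread between 2 libraries a group.

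MHC class I molecules, made of a heavy chain and B2M, show peptides of cytosolic proteins at the cell surface. Those peptides are cut by the proteasome, carried into the endoplasmic reticulum by the TAP transporter, trimmed by ERAP1 and ERAP2 and loaded with the help of tapasin (TAPBP), calreticulin (CALR) and PDIA3. MHC class II molecules, pairs of an alpha and a beta chain held by the invariant chain CD74, show peptides of endosomal proteins instead. Antigen-presenting cells of the immune system carry class II all the time, whereas epithelial cells of the kidney tubule can gain it in inflammation, with CIITA as the master regulator of its genes.

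Expected counts summed to between 27269986 and 33851130 a library, with a median of 30545923, so that 3 counts were worth 0.0867 to 0.112 CPM (counts scaled to a common library total, with TMM factors of 0.913 to 1.06). The epithelial keratins KRT8 and KRT18 and the tubular factor PAX8 were abundant in all libraries, with PAX8 from 128 to 414 CPM. Other tubular markers were scarce in Ctrl and TN, where LRP2, MME and HNF4A were at 0 counts in all 4 libraries, and SLC34A1 had 0 to 3 counts in all 12. Of the defining markers of immune and endothelial cells, PTPRC had 0 to 5 counts, CD3E 0 to 2 and PECAM1 1 to 31 in any library, and MS4A1 was at 0 in all 12. The myeloid markers CD14, CSF1R and TYROBP reached higher counts with SCFA and are given below beside HLA-DRA.

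With either SCFA, at either time, the class II genes that were called were all higher than in TN, and the called genes of the class I peptide supply were all lower. A gene was called where limma-voom gave an adjusted p under 0.05 over all tested genes and its level changed over 1.5-fold. Against TN, 12 of the 36 genes were called higher and 9 lower in PRTN, and 12 higher and 9 lower in BUTN. The same comparison gave 11 higher and 9 lower in TNPR and again 11 higher and 9 lower in TNBU. These counts stand beside a large background, since propionate before TNF-α had 23.9% of all tested genes called higher and 16.7% lower, and butyrate before it 23.1% higher and 14.8% lower. After TNF-α the shares of all tested genes were 24.9% higher and 16.9% lower for propionate, and 25.0% higher and 16.5% lower for butyrate. HLA-DOA, HLA-DQA1, HLA-DQB1 and HLA-DRA passed the filter on low counts only through SCFA libraries, where their counts are higher. Their calls against TN thus draw on the values that let them be tested. Of the 32 genes that passed it on Ctrl and TN alone, 8 (PRTN), 8 (BUTN), 8 (TNPR) and 9 (TNBU) were called higher, a share near that of all tested genes. In each, 9 of the 32 were called lower, a larger share than the 14.8% to 16.9% of all tested genes. The shares of all tested genes include genes let in by SCFA libraries, so the filters differ, and the differences in share were not tested. In bulk RNA, fewer cells of a type and less RNA per cell cannot be told apart. Over the 36 genes the log2 fold change had medians of 0.26 to 0.32 in the 4 comparisons, beside 0.08 to 0.12 over all tested genes.

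Of the 7 class II genes that passed the filter on Ctrl and TN alone, 4 were called higher in each SCFA group, namely HLA-DMA, HLA-DMB, HLA-DRB1 and CD74. With the 4 that passed it through the SCFA libraries, the count was 8 (PRTN), 8 (BUTN), 7 (TNPR) and 6 (TNBU) of 11, which is a description. Of these, HLA-DRB1 had 3 summed counts in TN. Of the 7 genes of transport, trimming and loading, 5 were called lower in each of the 4 SCFA groups, as were 2 of the 3 immunoproteasome subunits. Beside these counts, 23.1% to 25.0% of all tested genes were called higher and 14.8% to 16.9% lower, and the differences in share were not tested. Over the 4 comparisons with TN, 9 genes were called higher in every one, 9 lower in every one, 4 higher in some and 14 in none. The 4 SCFA groups share the same TN libraries, so these calls are not independent of each other.

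**Figure D1:**
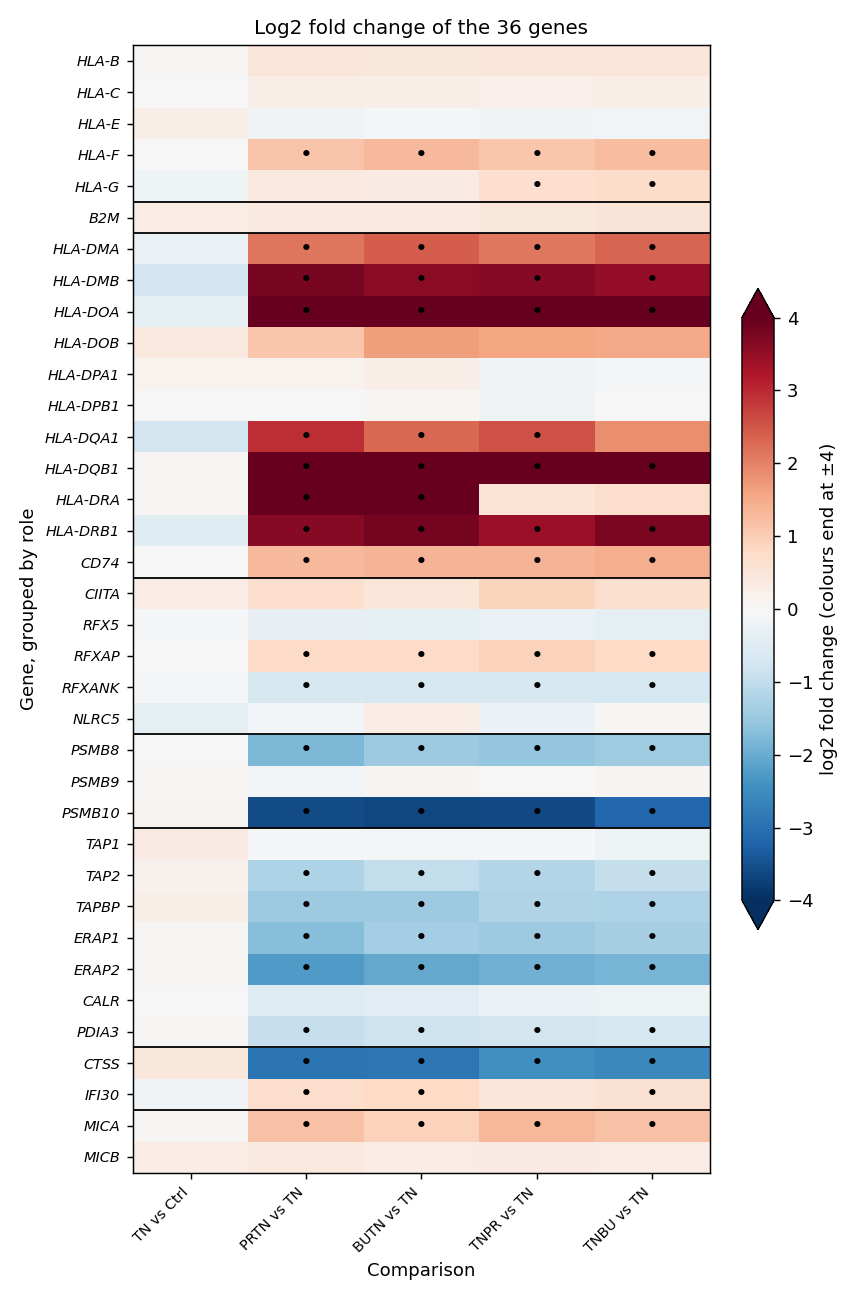
Log2 fold changes of the 36 genes (rows, grouped by role between black lines) in TN against Ctrl and in the 4 SCFA groups against TN (columns). Red is higher, blue lower, and dots mark calls, which fall on 6 to 8 of the 11 class II genes in red, of which HLA-DOA, HLA-DQA1, HLA-DQB1 and HLA-DRA passed the filter only through SCFA libraries, and on supply genes such as PSMB10, ERAP2 and TAPBP in blue, with no dot in TN against Ctrl, while the fitted size of genes at 0 in TN (HLA-DQA1, HLA-DQB1, HLA-DRA) depends on the small count added before the log.

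HLA-DMA and HLA-DMB, which together form the HLA-DM molecule that exchanges the invariant chain remnant for peptide, had clear counts in every group. HLA-DMB stood at 3.17 and 4.30 CPM (Ctrl) and at 2.35 and 1.97 CPM (TN). It reached 29.9 and 30.3 CPM (PRTN), 26.1 and 26.9 (BUTN), 27.4 and 26.3 (TNPR), and 25.1 and 24.2 (TNBU). All 8 SCFA libraries were thus far above all 4 without SCFA, and the fold over TN was 13.9 (PRTN), 12.2 (BUTN), 12.4 (TNPR) and 11.4 (TNBU) (limma adjusted p 2.45e-09 to 5.73e-09). HLA-DMA had 4.08 and 3.44 CPM (Ctrl), 2.83 and 3.41 (TN), 13.7 and 13.9 (PRTN), 17.3 and 16.1 (BUTN), 12.7 and 14.7 (TNPR), and 15.0 and 16.3 (TNBU). Its rise over TN was 4.42-fold (PRTN), 5.33-fold (BUTN), 4.35-fold (TNPR) and 5.00-fold (TNBU), with no overlap between groups.

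CD74, the invariant chain, was the most abundant gene of the class II set. It had 51.8 and 46.3 CPM (Ctrl), 44.4 and 53.2 (TN), 118 and 121 (PRTN), 122 and 125 (BUTN), 131 and 119 (TNPR), and 135 and 129 (TNBU). The log2 fold changes from TN were 1.30 ± 0.09 (SE) (PRTN), 1.35 ± 0.09 (BUTN), 1.36 ± 0.09 (TNPR) and 1.44 ± 0.09 (TNBU). Per kilobase of exon, the level of CD74 was 10.8 CPM with TNF-α alone and 26.4 in PRTN, that of HLA-DMB 0.468 and 6.52, and that of HLA-DMA 1.24 and 5.48.

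HLA-DOA, the alpha chain of HLA-DO, which holds HLA-DM back, had no more than 2.04 counts in any library of Ctrl or TN. Its levels with SCFA were 2.0 and 2.16 CPM (PRTN), 2.38 and 2.61 (BUTN), 2.10 and 2.37 (TNPR), and 2.66 and 1.99 (TNBU), which came from 60 to 90.35 counts a library. TN had 2 counts in all, so the ratio to it had wide 95% counting intervals (exact, counting error only), from 15.4 to 474 around 56.8 in PRTN, 18.6 to 568 around 68.2 in BUTN, 16.6 to 508 around 61.0 in TNPR and 17.2 to 529 around 63.4 in TNBU. Its partner HLA-DOB had 1.26 to 5.88 counts without SCFA and 6.43 to 23.07 with it, and was not called against TN in the main fit (limma adjusted p 0.0617 to 0.219). With only the groups compared in the fit, HLA-DOB was called higher in BUTN and TNPR (limma adjusted p 0.0205 and 0.0428). Scaling by library size alone also called it in BUTN (0.0446), as did a replicate term in BUTN, TNPR and TNBU (0.0419 to 0.0470).

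The HLA-DQ and HLA-DR chains had few counts. HLA-DQB1 was at 0 counts in all 4 libraries of Ctrl and TN, and at 1.65 and 0.943 CPM (PRTN), 1.22 and 1.62 (BUTN), 1.36 and 1.82 (TNPR), and 2.07 and 2.39 (TNBU). Against a floor of 3 counts in each TN library it was at least 11.8-fold higher (PRTN), 12.9-fold (BUTN), 14.5-fold (TNPR) and 20.3-fold (TNBU). HLA-DRB1 had 1.05 and 5.06 counts (Ctrl) and 1.01 and 2.08 (TN). With SCFA its levels were 1.05 and 0.731 CPM (PRTN), 1.01 and 1.03 (BUTN), 0.682 and 0.869 (TNPR), and 0.501 and 1.79 (TNBU), and no library overlapped with TN. Its ratio to TN was 16.2 in PRTN (95% counting interval 5.29 to 80.9), 18.6 in BUTN (6.11 to 92.6), 14.0 in TNPR (4.53 to 70.3) and 21.1 in TNBU (6.93 to 105). Its limma adjusted p was 0.00536 to 0.0106, and left the threshold in each of the 4 comparisons without TN replicate 1 (0.0559 to 0.0851) and without TN replicate 2 (0.0519 to 0.0738). HLA-DQA1 had 0 to 1 counts without SCFA and 1 to 6 with it, and was called higher in PRTN, BUTN and TNPR. Against the same floor, worth 0.110 CPM in TN, HLA-DQA1 was at least 1.21-fold higher in PRTN, under the 1.5-fold threshold. Its means of 0.0746 CPM in BUTN and 0.0924 CPM in TNPR lay below that floor. Without TN replicate 1 its adjusted p was 0.0975 in BUTN and 0.0618 in TNPR, without TN replicate 2 it was 0.104 and 0.0670, and without BUTN replicate 2 it was 0.10 in BUTN.

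HLA-DPA1 and HLA-DPB1, the 2 chains of HLA-DP, were not called. HLA-DPB1 lay between 4.71 and 6.50 CPM in the 12 libraries and HLA-DPA1 between 1.09 and 2.33 CPM. Their log2 differences from TN ran from -0.14 to 0.26 over the 4 SCFA groups, with adjusted p of 0.456 or more.

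As a description that includes the 4 genes let in by the SCFA libraries, the median log2 fold change of the 11 class II genes was 2.96 (PRTN), 2.41 (BUTN), 2.12 (TNPR) and 1.86 (TNBU). With the genes at 0 in TN set at their lower bound it was 2.14 in PRTN and did not move in the others. The HLA genes of 1 family are close in sequence, and RSEM divides reads that match several of them, so single values are uncertain for HLA-B, HLA-C, HLA-E, HLA-F, HLA-G, HLA-DRB1, HLA-DQA1 and HLA-DQB1. The close class II relatives HLA-DRB5 and HLA-DRB6 had at most 6.40 and 5 counts, HLA-DQA2 at most 1, and HLA-DQB2 was at 0 in all libraries. Class I relatives had more, with 512.43 to 1188.72 counts a library for HLA-H and 233.35 to 497.34 for HLA-L. HLA-K had 189.72 to 429.42 and HLA-J 45.79 to 78.9. The part of shared reads in the values of the class I heavy chains was not tested.

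**Figure D2:**
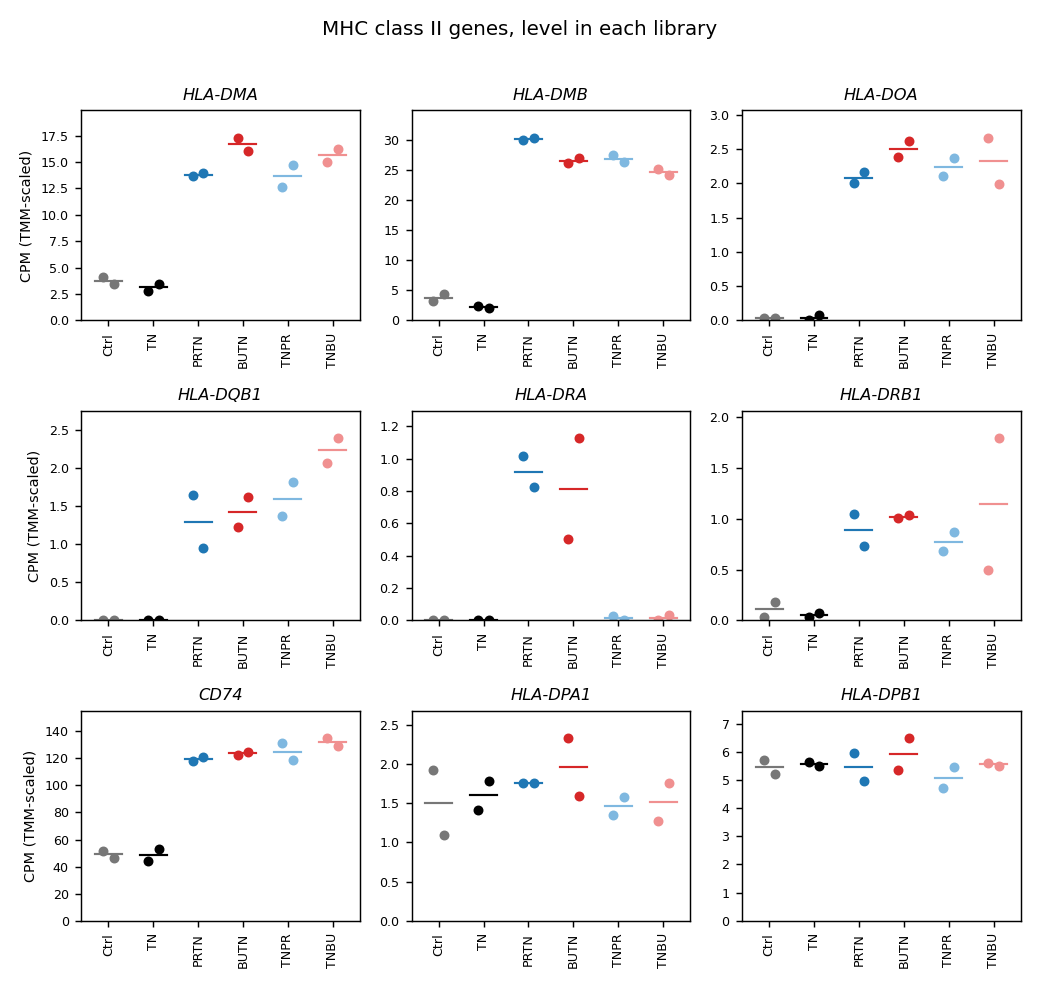
CPM of 9 class II genes in each library (points) with the mean of 2 (lines), by group, on linear axes that start at 0. HLA-DMB lies between 24.2 and 30.3 CPM with SCFA and between 1.97 and 4.30 without, HLA-DRA has 0.50 to 1.13 CPM in PRTN and BUTN and at most 0.0332 elsewhere, and HLA-DPA1 and HLA-DPB1 show no step.

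Class II promoters carry an X1 box, bound by the RFX complex, and a Y box, an inverted CCAAT bound by NF-Y. Windows from 250 bases before to 50 after the start site were taken from RefSeq (GRCh38.p14) for 30 of the 36 genes, and were not at hand for CTSS, PDIA3, NLRC5, HLA-DRA, HLA-E and CIITA. Where a gene had several windows, the 1 nearest to the start of its GENCODE model was used, and 16 of the 30 started within 100 bases of it, the farthest 15997 bases away. The 4 sequences shown are the 180 bases before the start of class II genes called higher in all 4 SCFA groups, with capitals at CCAAT (or its reverse ATTGG) and at GNAACNG where ATTGG follows it by 5 to 40 bases, both strands searched. The paired motif includes a CCAAT match by construction.

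HLA-DOA, chr6:33009592-33009771, minus strand: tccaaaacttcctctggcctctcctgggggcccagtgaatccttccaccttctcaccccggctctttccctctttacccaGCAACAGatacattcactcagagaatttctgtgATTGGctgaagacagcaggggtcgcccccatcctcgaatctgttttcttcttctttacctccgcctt
HLA-DRB1, chr6:32589849-32590028, minus strand: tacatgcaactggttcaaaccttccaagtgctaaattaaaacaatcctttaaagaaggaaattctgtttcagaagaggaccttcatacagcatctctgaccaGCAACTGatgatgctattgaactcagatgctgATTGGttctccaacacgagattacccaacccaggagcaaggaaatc
HLA-DQB1, chr6:32666658-32666837, minus strand: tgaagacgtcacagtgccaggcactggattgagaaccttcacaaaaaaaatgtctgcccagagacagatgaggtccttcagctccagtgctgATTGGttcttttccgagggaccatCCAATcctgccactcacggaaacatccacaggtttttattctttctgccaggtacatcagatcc
HLA-DMB, chr6:32941029-32941208, minus strand: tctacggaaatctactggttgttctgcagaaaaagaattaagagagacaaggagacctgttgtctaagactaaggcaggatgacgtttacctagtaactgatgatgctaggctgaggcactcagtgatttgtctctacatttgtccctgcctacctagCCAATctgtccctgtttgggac

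HLA-DOA and HLA-DRB1 hold the paired motif, as does HLA-DQA1, whereas HLA-DQB1 and HLA-DMB hold CCAAT but not the pair. The window of HLA-DQB1 lies 1726 bases from the start of its GENCODE model. Among the 10 class II genes with a window, 9 (90%) hold CCAAT, beside 34.6% of all 35116 RefSeq windows, and 3 (30%) hold the paired motif, beside 1.70% of all windows. HLA-DPB1, which was not called, also holds CCAAT, at 2 places. Neither motif is confined to class II. Of all 30 windows, 21 (70%) hold CCAAT, among them 3 of the 4 class I heavy chains with a window. The paired motif is in 5 (16.7%) of the 30, and also lies in HLA-F of the class I chains and in RFX5. These matches are letters in a window and say nothing of binding.

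Of the 5 regulators, 1 was called higher and 1 lower in each SCFA group, shares near those of all tested genes (23.1% to 25.0% higher and 14.8% to 16.9% lower). CIITA, the master regulator of class II, had 6.30 to 17.99 counts in Ctrl and TN and 14.99 to 37.16 with SCFA. It was not called against TN, with log2 differences of 0.48 to 0.88 and adjusted p of 0.109 to 0.404. RFXAP and RFXANK, subunits of the RFX complex, went opposite ways. RFXAP had 10.4 and 8.82 CPM (Ctrl), 9.98 and 9.08 (TN), 15.7 and 16.9 (PRTN), 15.4 and 16.7 (BUTN), 17.2 and 18.7 (TNPR), and 15.6 and 17.7 (TNBU), and it was 1.69-fold to 1.89-fold higher than in TN. RFXANK had 26.3 and 25.3 CPM (Ctrl), 24.1 and 24.7 (TN), 15.0 and 16.1 (PRTN), 16.1 and 14.6 (BUTN), 16.2 and 15.3 (TNPR), and 15.2 and 14.9 (TNBU). It was 1.54-fold to 1.62-fold lower, just past the 1.5-fold threshold, and scaling by library size alone left it at log2 fold changes of -0.45 to -0.52 and out of the calls. RFX5, the third subunit, lay between 53.9 and 60.2 CPM with SCFA and between 69.1 and 73.1 without, a difference under 1.5-fold (adjusted p 0.000492 to 0.00364). NLRC5, the corresponding regulator of class I genes, ranged from 5.66 to 9.54 CPM and was not called.

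HLA-DRA, the common alpha chain of HLA-DR, was the 1 gene of the set called between the times of the SCFA. It had 35 and 27 counts (PRTN) and 16 and 39 (BUTN), beside 1 and 0 (TNPR), 0 and 1 (TNBU), and 0 in all 4 libraries of Ctrl and TN. Against the floor of 3 counts a library it was at least 8.36-fold higher than TN in PRTN and 7.42-fold in BUTN. HLA-DRA passed the filter only through PRTN and BUTN, so its comparisons with the other groups draw on the values that let it be tested. From PRTN to TNPR the fitted log2 fold change was -5.12 ± 0.84 (SE, limma adjusted p 0.0326), and from BUTN to TNBU it was -4.72 ± 0.85 (adjusted p 0.0281). The ratio of summed counts was 59.8 for propionate (95% counting interval 10.3 to 2400.0) and 48.5 for butyrate (8.35 to 1949). With only the 4 libraries compared in the fit the adjusted p was 0.262 and 0.260. For propionate it was 0.151 without PRTN replicate 1, 0.0625 without TNPR replicate 1 and 0.227 without TNPR replicate 2. For butyrate it was 0.0874 without BUTN replicate 2, 0.0636 without TNBU replicate 1 and 0.0850 without TNBU replicate 2.

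Of 24 markers of myeloid cells, 15 were tested. Between the times of the SCFA, 1 was called lower (MRC1) and 14 were not called for propionate, with a median log2 difference of -0.26. For butyrate 1 was called lower (CYBB) and 14 were not called, with a median of -0.13. Of all tested genes, 0.107% were called lower in TNPR than in PRTN and 0.173% in TNBU than in BUTN. MRC1 and CYBB had most of their counts in PRTN and BUTN, so their calls draw on values that helped them pass the filter on low counts. CYBB, a subunit of the phagocyte oxidase, had 44 and 17 counts (PRTN) and 17 and 25 (BUTN), beside 0 to 3 in each of the other 8 libraries. MRC1, the mannose receptor, had 13 and 7 (PRTN) and 5 and 11 (BUTN), beside 0 or 1 elsewhere, and LYZ, lysozyme, had 17.47 to 51.87 in those 4 libraries beside 0 to 12 elsewhere. PTPRC, the common leukocyte antigen, had 1 and 5 counts (PRTN), 1 and 3 (BUTN), and 0 in TNPR and TNBU. CYBB, MRC1 and LYZ were singled out after their values were seen. Other myeloid markers had more counts at both times than without SCFA. CD14 had 89 to 122 counts in PRTN and BUTN, 72 to 91 in TNPR and TNBU and 17 to 28 without SCFA, TYROBP 15 to 34, 9 to 16 and 0, and CSF1R 28 to 42, 10 to 29 and 4 to 11. SPI1, the myeloid master factor, had 5 to 8, 1 to 3 and 0 to 1 counts. Of the 24 myeloid markers, 15 had at least 3 counts in both libraries in PRTN, 15 in BUTN, 13 in TNPR, 11 in TNBU and 7 each in Ctrl and TN. Their summed level was 45.4 to 50.9 CPM without SCFA, 62.4 to 64.6 in PRTN, 83.3 to 84.9 in BUTN, 64.3 to 73.7 in TNPR and 81.2 to 94.8 in TNBU. Summed over lists of markers, lymphoid genes had 0.969 to 1.96 CPM without SCFA and 6.48 to 11.1 with it, endothelial genes 0.275 to 0.467 and 2.70 to 4.47, and tubular genes 2139 to 2258 and 2182 to 2788. Each sum is weighted to its most abundant genes. Against TN, 8 to 13 of 15 tested myeloid markers were called higher, 5 to 6 of 10 lymphoid, 4 to 5 of 5 endothelial and 10 to 11 of 17 tubular. In each SCFA group 5 of the 17 tubular markers were called lower. Of all tested genes, 23.1% to 25.0% were called higher and 14.8% to 16.9% lower. Markers near 0 without SCFA could pass the filter through the SCFA libraries. The part of RNA of myeloid, lymphoid or endothelial cells in the counts of HLA-DRA and the other class II chains was not tested.

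**Figure D3:**
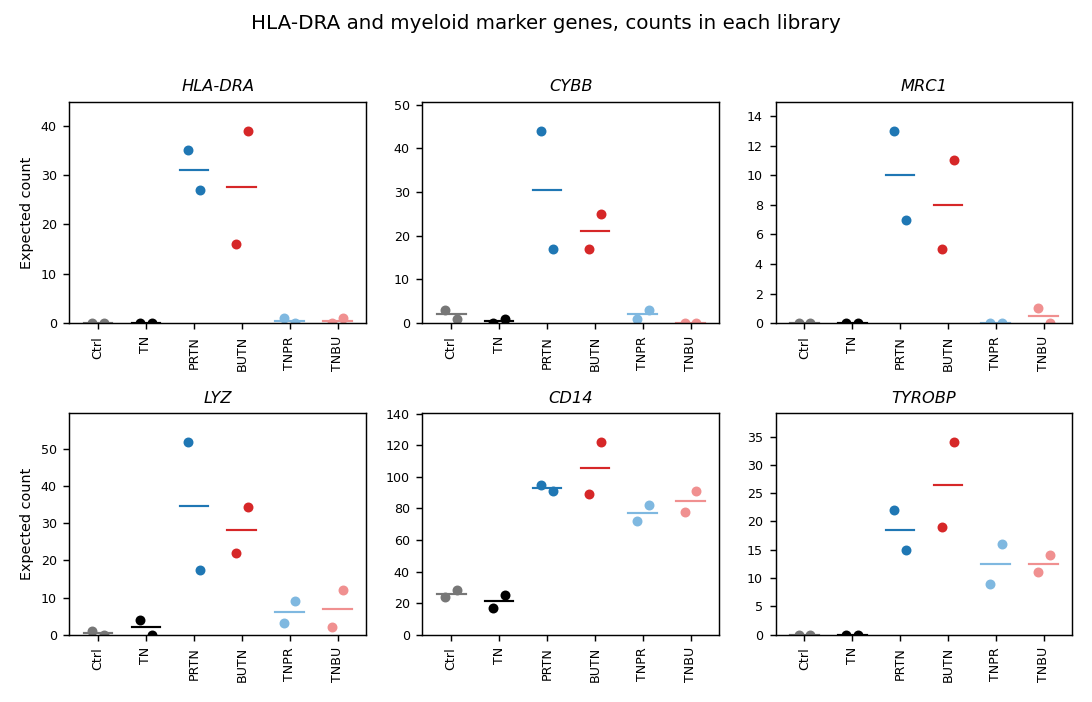
Expected counts in each library (points) and their mean (lines) for HLA-DRA and 5 myeloid marker genes, by group, with axes from 0. HLA-DRA, CYBB and MRC1 have counts in PRTN and BUTN and at most 3 in the other groups, whereas CD14 and TYROBP have more counts in all 4 SCFA groups than in Ctrl and TN.

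HLA-B, HLA-C, B2M and HLA-E were not called in any SCFA group against TN. HLA-B, a classical heavy chain, had 176 to 194 CPM in the 4 libraries without SCFA and 252 to 264 in the 8 with it, and the groups did not overlap. The fold over TN was 1.36 to 1.41 (adjusted p 5.69e-06 to 1.67e-05), under the 1.5-fold threshold, and scaling by library size alone brought HLA-B past it in all 4 comparisons. HLA-C ranged from 95.3 to 107 CPM without SCFA and from 112 to 124 with it, a fold of 1.14 to 1.21. B2M, the light chain, had 333 and 286 CPM (Ctrl), 359 and 409 (TN) and 489.7 to 549 with SCFA, 1.30 to 1.43 times TN (adjusted p 7.79e-05 to 0.000886). Scaling by library size alone also brought B2M past 1.5-fold in TNPR (log2 fold change 0.64) and TNBU (0.71), as did leaving out TN replicate 2 in TNBU (0.59). Against Ctrl, B2M was called higher in each SCFA group, with log2 fold changes of 0.69 (PRTN), 0.71 (BUTN), 0.78 (TNPR) and 0.82 (TNBU). HLA-E, a non-classical chain read by natural killer cells, stayed between 123 and 153 CPM. B2M was the most abundant of these per kilobase of annotated exon, at 123 CPM in TN, beside 50.4 for HLA-E, 40.4 for HLA-C and 40.2 for HLA-B. The merged exons of all annotated transcripts span 4623 bases for HLA-B and 2507 for HLA-C, so the order of the heavy chains depends on that length.

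HLA-F, a non-classical heavy chain, was the class I chain called higher in all 4 SCFA groups. It had 8.14 and 7.68 CPM (Ctrl), 6.83 and 9.28 (TN), 17.2 and 17.8 (PRTN), 20.4 and 18.6 (BUTN), 17.4 and 17.0 (TNPR), and 18.8 and 18.7 (TNBU). That was 2.15-fold to 2.43-fold over TN, with adjusted p of 1.95e-06 to 6.45e-06. HLA-G, the chain known from the placenta, had 1.67 and 1.91 CPM (Ctrl), 1.53 and 1.61 (TN), 1.96 and 2.17 (PRTN), 1.80 and 2.15 (BUTN), 2.53 and 2.52 (TNPR), and 2.46 and 2.83 (TNBU). It was called in TNPR (1.60-fold) and TNBU (1.68-fold), not in PRTN (1.31-fold) or BUTN (1.25-fold), and the later against the earlier time gave adjusted p of 0.554 and 0.307, so a difference between times was not shown. Without TN replicate 1 its adjusted p in TNPR was 0.0621.

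**Figure D4:**
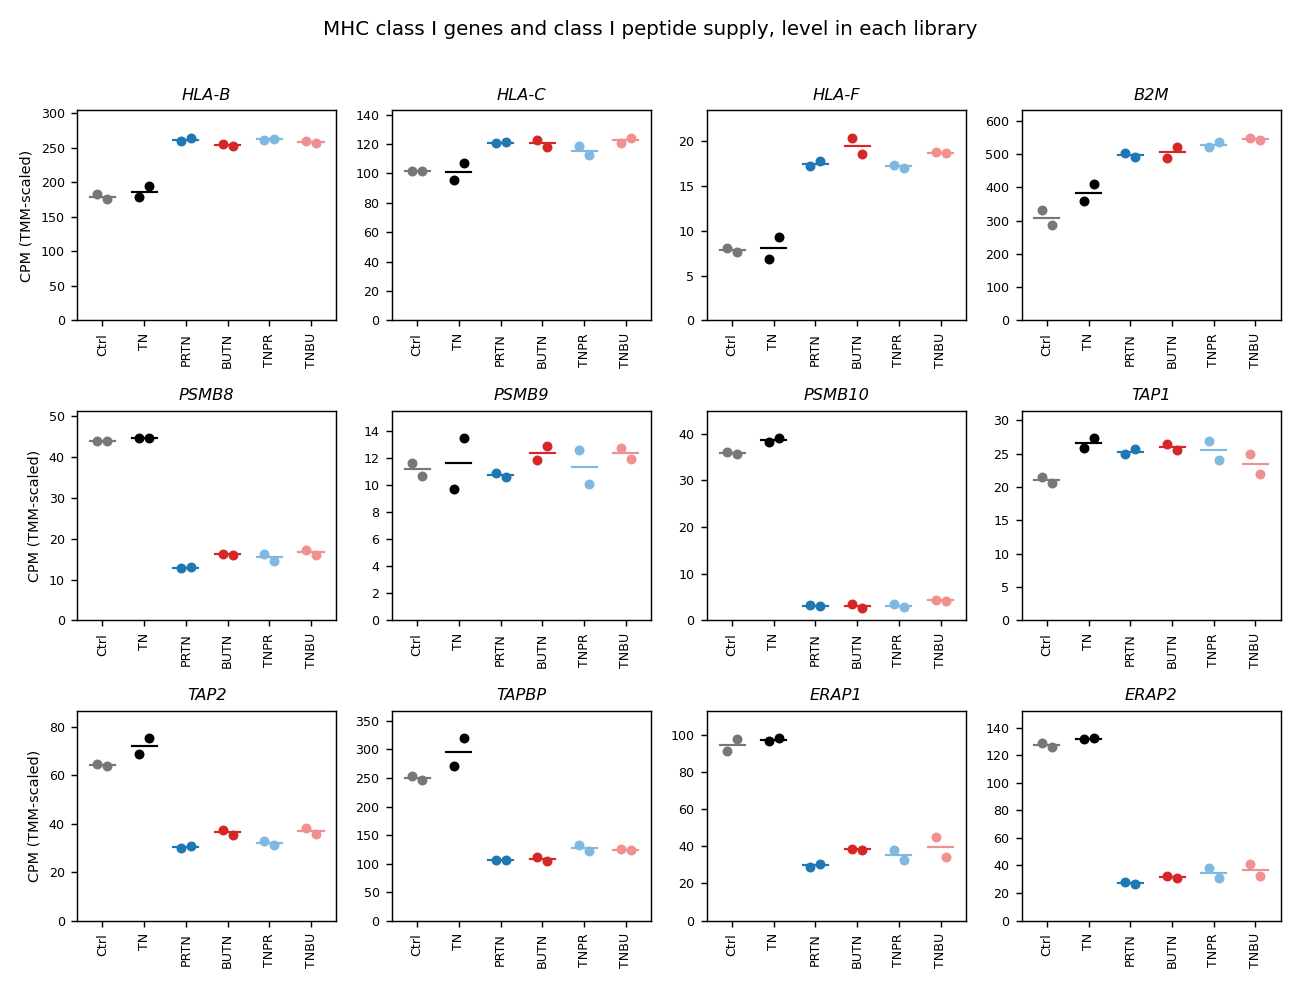
CPM in each library (points) with the mean of 2 (lines) for 4 class I chain genes and 8 genes of the class I peptide supply, by group, on linear axes from 0. PSMB8, PSMB10, TAP2, TAPBP, ERAP1 and ERAP2 step down in all 8 SCFA libraries, and PSMB9 and TAP1 do not. HLA-B and B2M are higher than in TN by less than 1.5-fold, while B2M is past 1.5-fold against Ctrl.

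The immunoproteasome replaces 3 catalytic subunits of the proteasome and changes which peptides are cut. PSMB10, the subunit that replaces PSMB7, had the lowest level of the 3 with SCFA. It had 36.1 and 35.6 CPM (Ctrl), 38.2 and 39.1 (TN), 3.33 and 3.06 (PRTN), 3.50 and 2.70 (BUTN), 3.58 and 2.79 (TNPR), and 4.44 and 4.24 (TNBU). All 8 SCFA libraries were below the 4 without, 12-fold lower than TN (PRTN), 12.6-fold (BUTN), 12.1-fold (TNPR) and 8.87-fold (TNBU) (adjusted p 8.66e-10 to 1.68e-09). PSMB8, which replaces PSMB5, had 43.9 and 43.9 CPM (Ctrl), 44.6 and 44.6 (TN), 12.8 and 13.1 (PRTN), 16.3 and 16.1 (BUTN), 16.2 and 14.6 (TNPR), and 17.2 and 16.1 (TNBU), which was 2.68-fold to 3.45-fold lower. PSMB9, which replaces PSMB6, lay between 9.72 and 13.5 CPM in the 12 libraries with log2 differences from TN of -0.10 to 0.11 (adjusted p 0.562 or more).

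PSMB8, PSMB9, TAP1 and TAP2 are neighbours in the class II region of chromosome 6, which holds 22 of the 36 genes. In GENCODE release 44 (GRCh38), TAP2 spans chr6:32821833-32838739, PSMB8 chr6:32840717-32844679, TAP1 chr6:32845209-32853816 and PSMB9 chr6:32844136-32859851, with PSMB9 on the plus strand and the others on the minus strand. The models of PSMB9 and TAP1 overlap, and so do those of PSMB9 and PSMB8 by 544 bases. The libraries keep strand, but the strand setting of the counting is not given in the sources used here, so reads of these overlaps may be assigned to either gene. Of the subunits of the peptide transporter, TAP2 was called and TAP1 was not, and the difference between them was not tested. TAP2 had 64.4 and 63.8 CPM (Ctrl), 68.6 and 75.2 (TN), 30.1 and 30.7 (PRTN), 37.5 and 35.4 (BUTN), 33.0 and 31.3 (TNPR), and 38.2 and 35.8 (TNBU), 1.95-fold to 2.36-fold below TN. TAP1 had 20.7 to 21.5 CPM in Ctrl, 25.9 to 27.4 in TN and 21.9 to 27.0 with SCFA, with log2 differences from TN of -0.19 to -0.03 that were not called.

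ERAP1, ERAP2 and TAPBP, of the trimming and loading steps, were called lower in every SCFA group. ERAP2, an aminopeptidase of the endoplasmic reticulum, had 129 and 126 CPM (Ctrl), 131 and 132 (TN), 28.1 and 26.5 (PRTN), 32.3 and 31.2 (BUTN), 38.3 and 31.0 (TNPR), and 41.2 and 32.5 (TNBU), 3.61-fold to 4.84-fold below TN. Its relative ERAP1 had 91.6 and 97.8 CPM (Ctrl), 96.7 and 98.3 (TN), 29.1 and 30.4 (PRTN), 38.8 and 37.9 (BUTN), 38.3 and 32.6 (TNPR), and 44.8 and 34.3 (TNBU), 2.49-fold to 3.28-fold lower. TAPBP, which ties class I molecules to the transporter, had 254 and 247 CPM (Ctrl) and 271 and 320.0 (TN). It had 107 in both libraries of PRTN, 111 and 104 (BUTN), 132 and 122 (TNPR), and 125 and 123 (TNBU), 2.32-fold to 2.76-fold lower. For all 3 genes no SCFA library overlapped with any library of Ctrl or TN.

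PDIA3 and CALR, chaperones of glycoprotein folding that also sit in the loading complex, differed in their calls. PDIA3 had 724 and 714 CPM (Ctrl), 757 and 719 (TN), 394 and 392 (PRTN), 413 and 424 (BUTN), 419 and 469 (TNPR), and 429.8 and 469 (TNBU), 1.64-fold to 1.88-fold below TN. With library size scaling its log2 fold change was -0.56 in TNPR and -0.52 in TNBU, under the threshold. CALR had 1417 to 1501 CPM without SCFA, 1027 to 1079.7 in PRTN and BUTN, and 1207 to 1306 in TNPR and TNBU, folds of 1.16 to 1.41 below TN that did not reach 1.5.

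The promoters shown here are those of 3 class I supply genes, of which TAPBP and PSMB10 were lower and TAP1 was not called, with HLA-F and B2M beside them. Each line gives the 180 bases before the start, with capitals at the NF-κB consensus, at the interferon core (GAAA, any 2 bases, GAAA, the core of the interferon-stimulated response element), and at the CCAAT and paired motifs as above.

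TAP1, chr6:32853705-32853884, minus strand: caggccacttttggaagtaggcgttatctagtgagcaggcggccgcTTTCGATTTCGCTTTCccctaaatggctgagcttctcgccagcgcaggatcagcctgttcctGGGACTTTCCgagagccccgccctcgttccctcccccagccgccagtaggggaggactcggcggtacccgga
TAPBP, chr6:33314079-33314258, minus strand: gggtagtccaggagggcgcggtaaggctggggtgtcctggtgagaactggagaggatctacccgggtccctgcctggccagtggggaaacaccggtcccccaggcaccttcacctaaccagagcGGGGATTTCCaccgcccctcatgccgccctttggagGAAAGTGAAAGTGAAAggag
PSMB10, chr16:67936851-67937030, minus strand: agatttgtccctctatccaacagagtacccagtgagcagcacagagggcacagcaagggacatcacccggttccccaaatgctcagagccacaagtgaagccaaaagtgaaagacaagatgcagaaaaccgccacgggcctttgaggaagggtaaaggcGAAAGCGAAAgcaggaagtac
HLA-F, chr6:29723254-29723433, plus strand: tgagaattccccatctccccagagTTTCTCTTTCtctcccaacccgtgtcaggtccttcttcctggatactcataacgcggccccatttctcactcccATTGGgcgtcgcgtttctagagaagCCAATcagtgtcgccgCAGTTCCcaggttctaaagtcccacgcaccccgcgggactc
B2M, chr15:44711337-44711516, plus strand: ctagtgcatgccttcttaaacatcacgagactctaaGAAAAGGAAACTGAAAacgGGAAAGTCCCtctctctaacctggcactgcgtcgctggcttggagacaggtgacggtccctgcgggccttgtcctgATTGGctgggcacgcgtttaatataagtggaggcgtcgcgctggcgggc

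TAP1, TAPBP and B2M hold both the NF-κB consensus and the interferon core, and HLA-F and PSMB10 hold the interferon core. The interferon core was in 7 (23.3%) of the 30 windows and in 4 of the 6 transport, trimming and loading genes with a window, beside 3.57% of all windows, and in none of the 10 class II windows. The NF-κB consensus was in 7 (23.3%) of the 30 and in 5.91% of all windows. The 7 genes with the interferon core are genes that fell (TAPBP, PSMB10, TAP2, ERAP1), a gene that rose (HLA-F) and genes that were not called (TAP1, B2M). Its relation to the direction of change was not tested.

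The 2 endosomal genes went opposite ways. CTSS, the protease that cuts the invariant chain, had 136 and 134 CPM (Ctrl) and 183 and 186 (TN). With SCFA it had 23.5 and 25.2 CPM (PRTN), 24.4 and 25.2 (BUTN), 36 and 31.4 (TNPR), and 32.1 and 29.8 (TNBU), 7.58-fold, 7.44-fold, 5.48-fold and 5.96-fold below TN (adjusted p 7.66e-11 to 1.86e-10). CTSS also lay 1.37-fold higher in TN than in Ctrl (adjusted p 0.00182), under the fold threshold. IFI30, a thiol reductase that unfolds antigens in endosomes, had 43.8 and 41.3 CPM (Ctrl), 37.2 and 40.2 (TN), 62.0 and 63.2 (PRTN), 66.9 and 67.4 (BUTN), 54.5 and 54.1 (TNPR), and 59.0 and 60.2 (TNBU). It was called higher in PRTN (1.62-fold), BUTN (1.74-fold) and TNBU (1.54-fold) and reached 1.40-fold in TNPR. In TNBU it fell under the fold threshold without TN replicate 1 (log2 fold change 0.55) and without TNBU replicate 2 (0.58).

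MICA and MICB are class I-like proteins of stressed cells that the receptor NKG2D recognises. MICA had 44.6 and 44.9 CPM (Ctrl), 47.2 and 44.6 (TN), 105 and 103 (PRTN), 85.5 and 88.1 (BUTN), 107 and 123 (TNPR), and 99.2 and 108 (TNBU), 1.89-fold to 2.49-fold over TN. MICB had 82.1 and 85.6 CPM (Ctrl), 101 and 104 (TN) and 121 to 134 with SCFA, a fold over TN of 1.23 to 1.30 that was not called. Other NKG2D ligands, which are not in the set of 36, were also called higher. ULBP1 went from 0.563 to 0.834 CPM without SCFA to 6.44 to 9.05 with it, and RAET1G from 0 to 0.207 CPM to 3.52 to 5.19. ULBP2 went from 8.78 to 9.79 CPM to 26.4 to 39.5, 2.79-fold to 3.75-fold over TN. Of the 10 genes in this list of MHC-like molecules, 4 were called higher and 1 lower in PRTN, 3 and 2 (BUTN), 4 and 2 (TNPR), and 6 and 2 (TNBU), beside 23.1% to 25.0% of all tested genes higher and 14.8% to 16.9% lower.

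TNF-α alone gave 0 calls among the 36 genes with limma, where 0.764% of all tested genes were called higher and 0.534% lower. At an unadjusted p under 0.05 there were 9 of the 36, of which 1 was also past 1.5-fold, and edgeR and DESeq2 each called 1 gene. That gene was HLA-DMB, lower in TN by 0.77 on the log2 scale (SE 0.19, limma adjusted p 0.0513, edgeR 0.0165, DESeq2 0.00336). It was also called without Ctrl replicate 1 (adjusted p 0.0409), but its adjusted p was 0.278 without Ctrl replicate 2 and 0.156 without TN replicate 1. B2M (1.24-fold), MICB (1.22-fold), HLA-E (1.2-fold) and CTSS were higher in TN at an adjusted p under 0.05 without reaching 1.5-fold.

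Between an SCFA after and before TNF-α, 1 gene of the 36, HLA-DRA, was called, lower at the later time with either SCFA. Of all tested genes, 0.0534% were called higher and 0.107% lower in TNPR than in PRTN, and 0.0945% higher and 0.173% lower in TNBU than in BUTN. For the other 35 genes the log2 differences ran from -0.40 (HLA-DQA1) to 0.47 (HLA-DOB) for propionate and from -0.43 (HLA-DQA1) to 0.65 (HLA-DQB1) for butyrate. The median SE of these was 0.08 and 0.09, and for HLA-DQA1, at 1 to 6 counts, the SE was 0.59 and 0.71. CTSS was 0.47 higher on the log2 scale in TNPR than in PRTN (adjusted p 0.0381) and CALR differed by 0.26 (0.0634), both under the fold threshold, and the corresponding values for butyrate were 0.32 (0.101) and 0.24 (0.0567). Propionate and butyrate were given at different doses, so their values stand side by side here and were not compared.

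**Figure D5:**
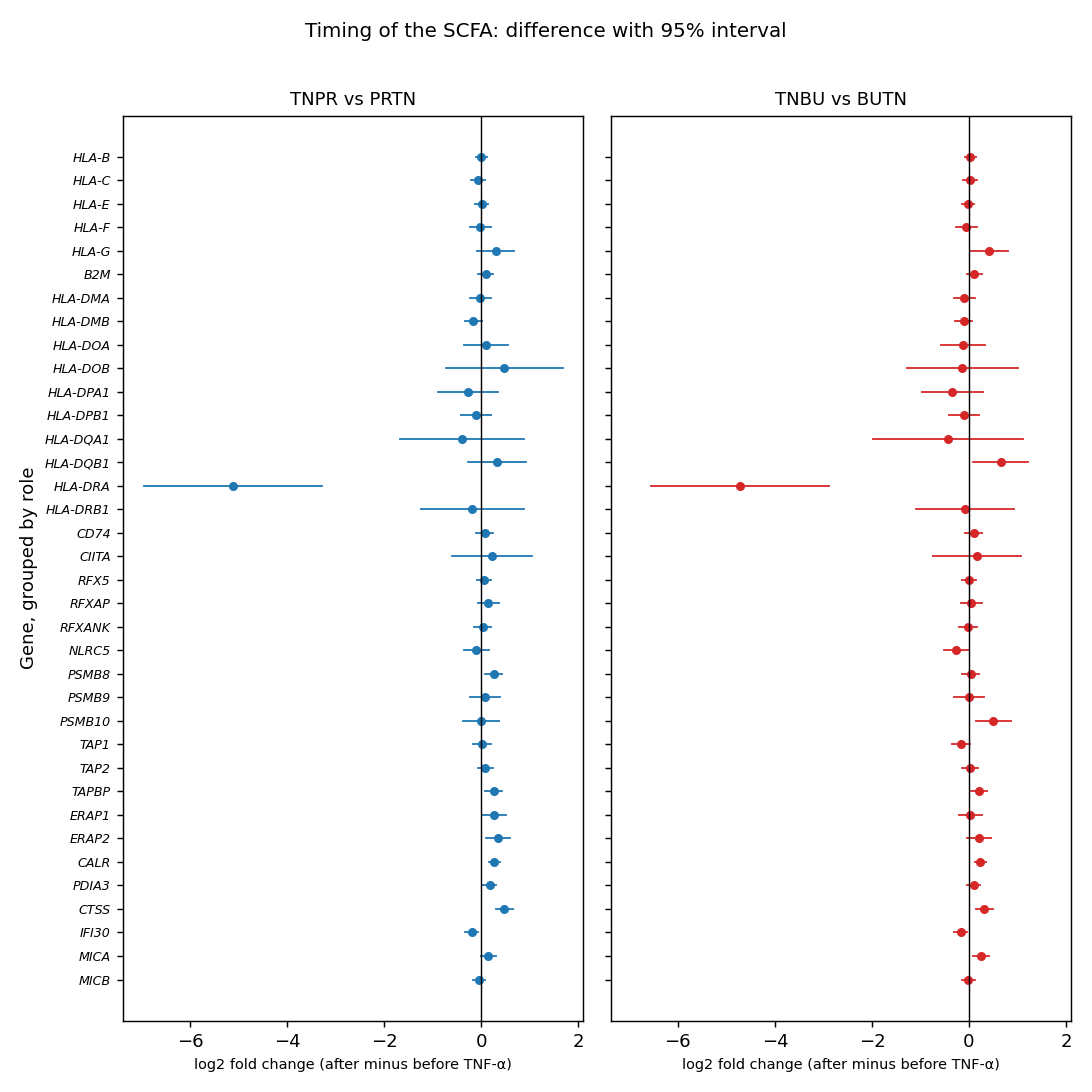
Log2 difference between an SCFA given after and before TNF-α for each of the 36 genes (points, with 95% intervals from the moderated fit as lines), for propionate (left) and butyrate (right). HLA-DRA lies near -5 in both, and the other 35 genes lie between -0.43 and 0.65.

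Genes of the same pathway outside the set were examined from lists of its neighbouring steps, and their counts stand beside the same 23.1% to 25.0% of all tested genes called higher and 14.8% to 16.9% called lower, which several of them are near. Of 11 genes of class I peptide supply and loading, 3 were called lower in each SCFA group. They were TAPBPL, a tapasin relative (19.4 to 21.3 CPM without SCFA, 2.96 to 5.12 with it), the lectin chaperone CANX (731 to 778 CPM, then 343 to 404) and HSPA5 (931 to 1043 CPM, then 542 to 603). The constitutive subunits PSMB5, PSMB6 and PSMB7, which PSMB8, PSMB9 and PSMB10 replace, were not called. Of 11 promoter factors and genes of interferon-gamma signalling, 6 (PRTN), 5 (BUTN), 7 (TNPR) and 7 (TNBU) were called lower, and 1 was called higher in each. IFNGR2, a receptor chain, went from 76.8 and 78.2 CPM (Ctrl) to 118 and 120.4 (TN), and was below TN by 2.20-fold (PRTN), 2.02-fold (BUTN), 3.16-fold (TNPR) and 3.07-fold (TNBU). IRF2, a regulator of interferon genes, had 37.5 and 37.3 CPM (TN) and 12 to 17.6 with SCFA. Of 6 endosomal proteases, LGMN (56.4 to 64.6 CPM without SCFA, 145 to 179.9 with it) and CTSB (240.5 to 263, then 453 to 602) were called higher in each SCFA group, and SPPL2A, which clears the remnant of CD74, was called lower (48.9 to 55.3 CPM, then 21.5 to 27.3).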

How the data were processed

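RNA of 12 HK2 libraries was sequenced by the authors from stranded poly(A) libraries, aligned with STAR 2.6.1a to GRCh38 and quantified by gene with RSEM on a GENCODE annotation. The RSEM version and its strand setting are not given in the sources used here. The deposited values are expected counts, of which 19.3% were not whole. They carry no normalization.

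Counts were scaled with TMM and fitted with limma-voom (limma 3.58.1, edgeR 4.0.16, R 4.3.3) over all 6 groups. Genes with a geometric mean of count + 1, less 1, of at least 1 were tested, and p-values were adjusted by Benjamini-Hochberg over 24342 genes for each of 7 comparisons. A call needed an adjusted p under 0.05 and a change of over 1.5-fold. edgeR and DESeq2 1.42.0 took rounded counts, as alternatives to limma-voom. The fit was tested on counts simulated for TN against Ctrl, with as many genes raised as lowered, and not for the SCFA comparisons. Levels per kilobase used the merged length of all annotated exons of each gene, which can exceed the length of the transcript expressed. Positions are from GENCODE release 44. All 36 genes are accounted for, with values in every library where a gene was called and reached 1 CPM. Outside the set, the 3 called genes of each pathway list with the largest change against TN and at least 1 CPM were named, with defining cell markers, and others are stated as chosen after their values were seen. A gene of one pathway list and a marker that this rule names are not reported here. The members and lists were chosen with earlier results of these data known. Replicate numbers were not used to pair the libraries in the main fit. Of 15 pairs of groups, 1 had a correlation of deviations over 0.1, at 0.24. With 2 libraries a group this does not settle whether libraries of the same number share a batch. Intervals and floors cover counting error only. Depth was 27269986 to 33851130 counts a library.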

Additional observations from a re-analysis of the deposited data

Results flagged for a closer look

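HLA-DRA was singled out because its response differed between the times of the SCFA. The log2 fold change was -5.12 from PRTN to TNPR and -4.72 from BUTN to TNBU, with 62 and 55 summed counts at the earlier time and 1 at the later for each SCFA. The gene passed the filter on low counts only through PRTN and BUTN. Of 15 tested myeloid markers, 1 was called lower at the later time and 14 were not called for each SCFA. Of all tested genes, 0.107% were called lower in TNPR than in PRTN and 0.173% in TNBU than in BUTN. The marker called lower (MRC1 for propionate, CYBB for butyrate) had most of its counts in PRTN and BUTN, which helped it pass the filter. The summed level of all 24 markers was 62.4 to 64.6 CPM in PRTN and 64.3 to 73.7 in TNPR, and 83.3 to 84.9 in BUTN and 81.2 to 94.8 in TNBU. That sum is weighted to its most abundant genes. Of the 24, the number with at least 3 counts in both libraries was 15 in PRTN, 13 in TNPR, 15 in BUTN and 11 in TNBU. The part of myeloid RNA in the counts of HLA-DRA was not tested.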

How the results depend on the processing

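No gene of the set changed direction where it was called, and 15 of the 22 called genes kept every call under all alternatives. For TN against Ctrl the count of 0 became 1 with edgeR, with DESeq2, with library size scaling and with the default filter of edgeR (HLA-DMB each time), 4 without the fold threshold (HLA-E, B2M, CTSS and MICB), and 0 to 1 with 1 library left out. For TNPR against PRTN the count of 1 became 2 without the fold threshold and 0 with only the groups compared, and for TNBU against BUTN it became 0 with only the groups compared. With 1 library left out both timing counts were 0 to 1. The lone library of a group was then assumed to vary like the other groups. DESeq2 gave no adjusted p for HLA-DRA between times. It gave none for HLA-DQA1 in PRTN and TNPR, and the default filter of edgeR removed that gene. DESeq2 also left HLA-G in TNPR at an adjusted p of 0.0794 and HLA-DQA1 in BUTN at 0.209. Scaling by library size moved the median log2 fold change of all genes against TN from 0.08 to 0.12 up to 0.23 to 0.29, and the calls over all genes in PRTN from 5824 higher and 4057 lower to 6784 and 3129, in BUTN from 5620 and 3613 to 6579 and 2656, in TNPR from 6067 and 4117 to 7231 and 3132, and in TNBU from 6094 and 4027 to 7329 and 2850. With the replicate block, the count called higher was 13 in BUTN, 12 in TNPR and 12 in TNBU, with HLA-DOB added, and no other count changed. HLA-DQA1, HLA-DRB1, HLA-DRA, HLA-DOB and CIITA had few counts, and depth and the spread between 2 libraries cannot be told apart there.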
